A study of Mus musculus with 12 samples.

Results

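The 36 genes described here encode working parts of the lysosome and the transcription factors known to switch such genes on. They were chosen by name and function from the 24028 genes of the count tables: 7 lysosomal membrane proteins, 10 cathepsins and other proteases, 9 other hydrolases, 3 soluble cofactors, 4 subunits of the V-ATPase and 3 factors of the MiT/TFE family. The choice used no level of any gene, but it was made with earlier results of these libraries known, so the counts and medians of the whole set are descriptions. All 36 genes were present in the tables, and all 36 passed the filter on low counts in each comparison.

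The lysosome is the acidic organelle in which cells break down proteins, lipids, glycans and worn organelles, and macrophages and other phagocytes are rich in it. The V-ATPase pumps protons into its lumen, the cathepsins and other hydrolases work at that low pH, and heavily glycosylated membrane proteins line its inner face. Tfeb, Tfe3 and Mitf encode MiT/TFE factors, which bind E-box motifs of lysosomal genes and are kept in the cytosol by mTORC1 when nutrients are plentiful, so their activity depends on where the protein is as well as on their RNA. Gpnmb, a membrane glycoprotein of macrophages, osteoclasts and pigment cells, is a known target of these factors.

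RNA had been sequenced from 12 libraries of bone marrow cells of C57BL/6 mice, 3 in each of 4 groups. The iMLL-ENL total libraries came from unsorted marrow of leukemic mice. These mice carry a knock-in through which doxycycline induces the leukemia fusion protein MLL-ENL, and they were given doxycycline until acute leukemia. The wt LSK libraries came from marrow of control mice of wild-type genotype, from which mature lineage cells were removed before sorting on c-Kit and Sca-1, so that they hold the stem and multipotent progenitor compartment. The B220 HIGH and B220 LOW libraries came from leukemic cells of the same iMLL-ENL genotype and doxycycline treatment, sorted for a high or low surface level of B220, an isoform of CD45. The labels give 3 animals per genotype but neither their age, nor the promoter that drives the knock-in, nor whether the control mice received doxycycline. They name no animal for a library, so the p-values reflect variation among libraries, which may be partly technical. Library totals were 18001563 to 22706882 counts in iMLL-ENL total, 18227843 to 19607722 in wt LSK, 10921521 to 20069503 in B220 HIGH and 13441696 to 16626820 in B220 LOW. Levels are CPM, counts scaled to the same library total, as mean ± SD with n = 3 where a spread is given. Coordinates are those of RefSeq on GRCm38.

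The cell labels were checked against marker genes. The summed level of 11 stem and LSK markers was 294 to 552 CPM in iMLL-ENL total and 3886 to 4423 CPM in wt LSK, and all 11 fell. Summed levels of 10 B lineage markers were low in both sorted groups, at 8.79 to 106 CPM in B220 HIGH and 7.2 to 14.9 CPM in B220 LOW, where Pax5, Igll1, Rag1 and Blnk had 0 counts, and counts per gene do not separate the B220 isoform of CD45. Some libraries stood apart. The wt LSK replicate 2 library had the highest level of its group in 28 of the 36 lysosome genes, and its B lineage sum was 309 CPM, against 62.2 and 51.2 CPM in the other wt LSK libraries. The B220 HIGH replicate 1 library, with the smallest total, had the lowest level of its group in 28 of the 36 genes. In B220 HIGH replicates 1, 2 and 3, conventional dendritic cell markers summed to 246, 3514 and 219 CPM and mast cell and basophil markers to 1239, 91.9 and 1299 CPM, so these sorted libraries differed from each other.

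Promoter sequence is shown for 4 members because MiT/TFE factors act through short motifs at lysosomal genes. A set of 3 motifs was searched on both strands in RefSeq promoters of GRCm38.p6, each 250 bases before to 50 bases after an annotated start. They were the E-box CACGTG, the palindrome TCACGTGA that is the core of the CLEAR element described in human cells, and the M-box TCATGTG, which reads as CACATGA on the other strand. Each TCACGTGA contains a CACGTG. All 4 printed windows hold TCACGTGA, so they do not stand for the members at large. Another RefSeq promoter of Ctsa (chr2:164832622-164832921) holds none of the 3 motifs and is not printed. In the lines below, capitals mark every match to a motif and the rest is in lower case.

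Ctsd (chr7:142387778-142388077, minus strand), the gene of the aspartic protease cathepsin D, and 3 further members follow, each 5′ to 3′.
Ctsd: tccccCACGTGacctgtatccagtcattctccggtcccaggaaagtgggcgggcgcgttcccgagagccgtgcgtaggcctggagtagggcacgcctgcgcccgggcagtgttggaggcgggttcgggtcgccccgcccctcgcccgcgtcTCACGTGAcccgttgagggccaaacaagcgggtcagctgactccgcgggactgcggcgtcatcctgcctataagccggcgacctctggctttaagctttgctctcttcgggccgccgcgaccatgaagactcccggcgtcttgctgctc
Ctsa (chr2:164833523-164833822, plus strand): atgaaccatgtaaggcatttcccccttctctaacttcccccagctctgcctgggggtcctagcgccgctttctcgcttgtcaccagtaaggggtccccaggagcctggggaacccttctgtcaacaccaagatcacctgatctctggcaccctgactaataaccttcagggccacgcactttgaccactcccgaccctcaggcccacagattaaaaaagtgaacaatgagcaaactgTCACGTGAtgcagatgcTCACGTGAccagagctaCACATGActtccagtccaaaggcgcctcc
Atp6v1a (chr16:44139210-44139509, minus strand): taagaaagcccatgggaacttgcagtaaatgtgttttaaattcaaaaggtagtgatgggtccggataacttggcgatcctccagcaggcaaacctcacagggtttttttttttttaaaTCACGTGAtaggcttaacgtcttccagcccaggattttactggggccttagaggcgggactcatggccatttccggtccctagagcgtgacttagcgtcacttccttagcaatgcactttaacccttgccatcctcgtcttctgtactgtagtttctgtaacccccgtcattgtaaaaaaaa
Mcoln1 (chr8:3500269-3500568, plus strand): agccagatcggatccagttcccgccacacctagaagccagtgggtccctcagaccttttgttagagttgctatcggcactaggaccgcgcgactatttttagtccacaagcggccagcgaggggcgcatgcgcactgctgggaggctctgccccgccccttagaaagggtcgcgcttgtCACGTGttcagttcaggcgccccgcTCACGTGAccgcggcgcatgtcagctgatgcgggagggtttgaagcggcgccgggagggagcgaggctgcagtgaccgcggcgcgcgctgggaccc

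Promoters were given for 30 of the 36 members, and those of Npc1, Ctsb, Ctsh, Asah1, Atp6v0d2 and Atp6v1b2 were not analysed here. CACGTG occurred in 10 of the 30 (33.3%), against 8.09% of all 27025 genes with a promoter and 11.5% of the 10854 such genes tested between iMLL-ENL total and wt LSK. TCACGTGA occurred in 5 of the 30 (16.7%), namely Mcoln1, Ctsa, Ctsd, Atp6v0d1 and Atp6v1a, against 1.12% of all genes and 2.11% of tested genes. The M-box occurred in 5 of the 30 (16.7%), namely Ctsa, Ctss, Tpp1, Ppt1 and Grn, against 4.31% and 2.83%. The Gpnmb promoter window held none of the 3 motifs. The 30 members with a promoter were not drawn at random, and a match is only a run of letters. Binding to these windows was not measured.

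Summed over the 36 genes, lysosomal RNA was lowest in the normal progenitors. In order of replicate, the summed level was 6313, 6568 and 7427 CPM in iMLL-ENL total, against 2283, 3272 and 2491 CPM in wt LSK. It was 7056, 11089.6 and 14598 CPM in B220 HIGH and 5642, 5494 and 5782 CPM in B220 LOW. The 3 libraries of each leukemic group lay above all wt LSK libraries, and the B220 HIGH libraries lay above all B220 LOW libraries but spread widely. Levels of groups from different count tables are set side by side here and were not tested against each other.

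**Figure D1:**
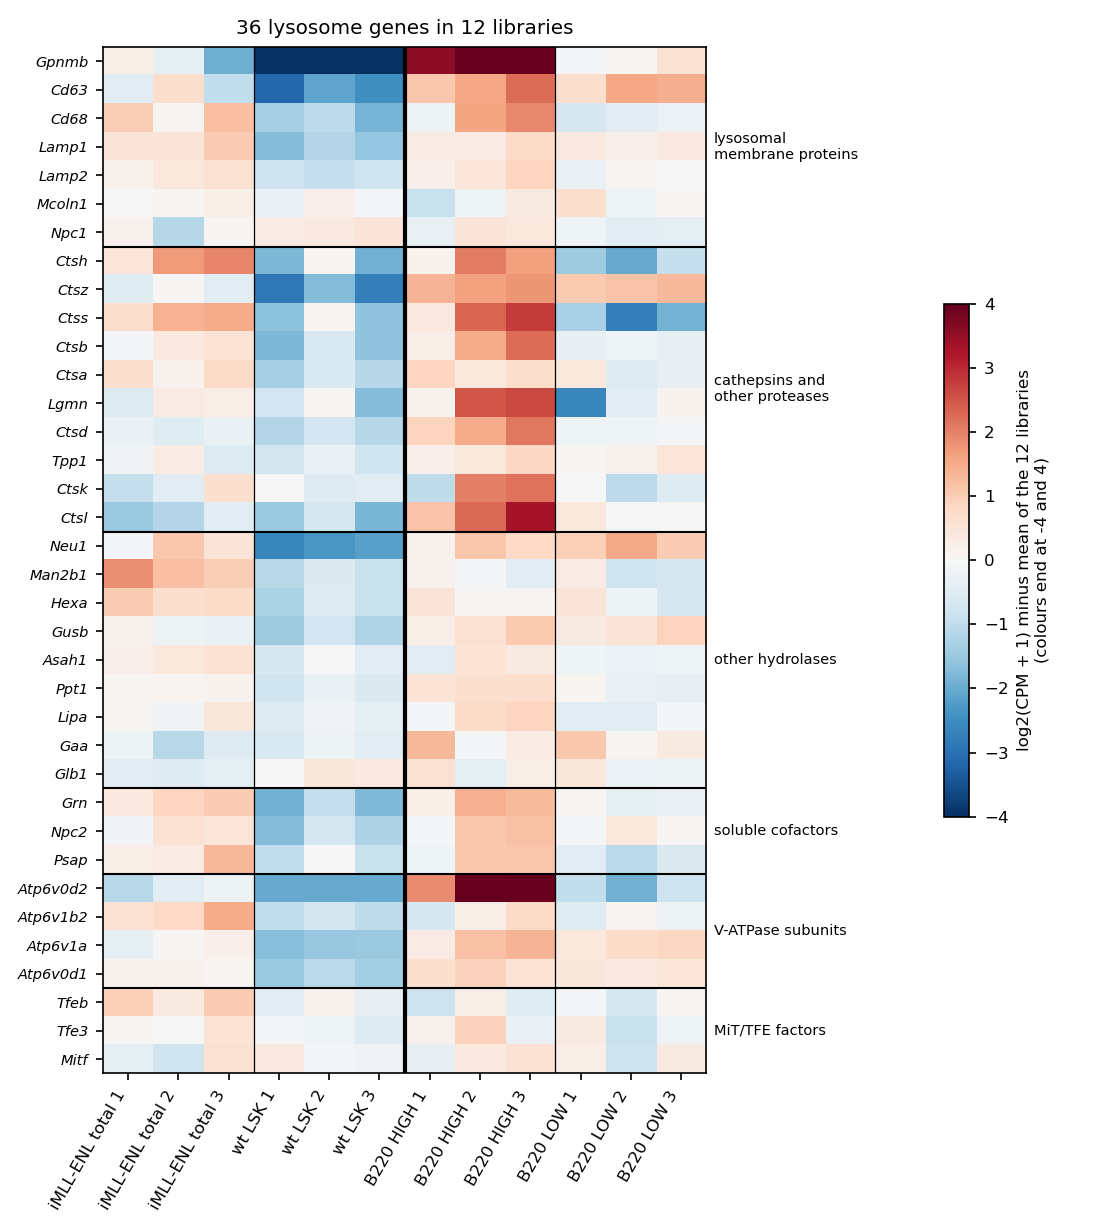
The heat map shows the 36 lysosome genes (rows, ordered by role) in the 12 libraries (columns), coloured by log2(CPM + 1) minus the gene's mean over the 12 libraries, with colours ending at -4 and 4. Gpnmb is darkest blue in wt LSK, and Gpnmb and Atp6v0d2 are darkest red in B220 HIGH replicates 2 and 3, where Gpnmb had 969.7 and 1735 CPM, and the B220 HIGH replicate 1 column is paler than its neighbours.

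Ordered by CPM per kilobase of the deposited gene width, the leading lysosome genes differed between groups. In iMLL-ENL total Lamp1, which encodes an abundant glycoprotein of the lysosomal membrane, stood first at 287 ± 61.4 CPM per kilobase, followed by Man2b1 at 171 ± 54.4, Grn at 157 ± 33.9 and Ctsd at 144 ± 11.5, which lay within their SDs of one another. In wt LSK Ctsd at 89.6 ± 14.4 and Lamp1 at 63 ± 13.2 CPM per kilobase led, with SDs that overlapped narrowly. In B220 HIGH Ctsd led at 545 ± 225, and Ctsz, Ctsl and Gpnmb followed at 331 ± 49.2, 288 ± 205 and 270.2 ± 179.8, all 4 with overlapping SDs. In B220 LOW Ctsz at 247 ± 21.4 and Lamp1, whose SDs overlap, stood ahead of Ctsd at 166 ± 9.06 CPM per kilobase. Gpnmb was 30th of the 36 genes in iMLL-ENL total, 35th in wt LSK, 4th in B220 HIGH and 28th in B220 LOW.

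The first comparison set leukemic marrow against the normal progenitor compartment. Of the 36 lysosome genes, 26 rose in iMLL-ENL total, 0 fell and 10 did not pass (edgeR's quasi-likelihood test, adjusted p under 0.05). Over all 13811 genes tested, 15.5% were higher and 15.1% lower by the same rule (2135 and 2086 genes). With library totals in place of TMM factors the median of all genes moved by -0.15 on the log2 scale, the split became 1689 higher and 2447 lower, and 24 members were higher and 1, Glb1, lower. The median log2 fold change was 1.54 over the members and 0.05 over all genes tested. In 27 members every iMLL-ENL total library was above every wt LSK library, and in 2 every one was below. Over all 13811 genes tested, 2623 and 4073 genes separated in these ways, so such a separation was common. All 3 cofactors and all 4 V-ATPase subunits rose, as did 5 of 7 membrane proteins, 6 of 10 proteases, 7 of 9 other hydrolases and 1 of 3 MiT/TFE factors. Among these, the subunit gene Atp6v0d2 had no counts in wt LSK, so it could be called only as higher. In bulk RNA, a smaller share of cells of a type and less RNA per cell cannot be told apart, and the wt LSK sort, the genotype and the doxycycline cannot be told apart here either.

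**Figure D2:**
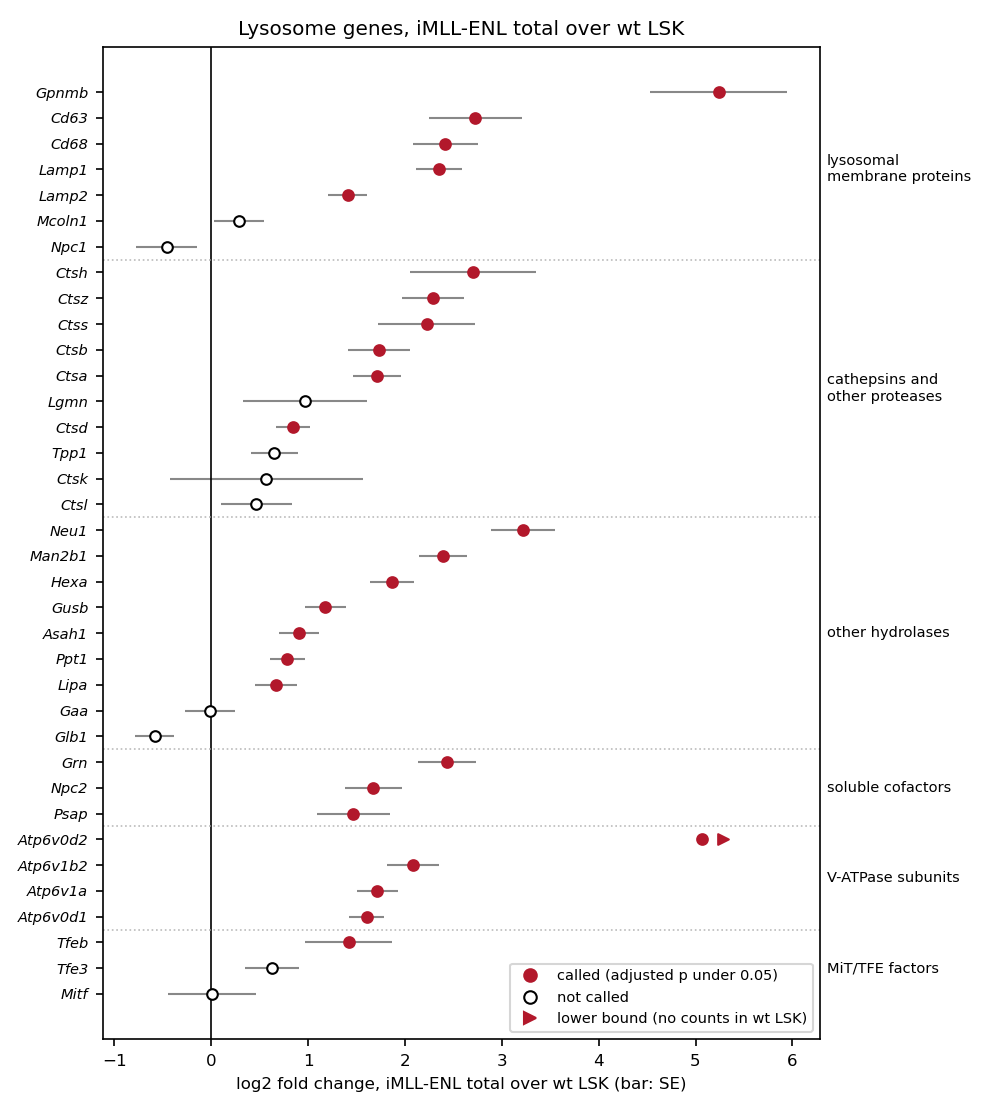
Each point is the edgeR log2 fold change of a lysosome gene, iMLL-ENL total over wt LSK (3 libraries each), with a bar of 1 SE, grouped by role; filled points passed at an adjusted p under 0.05. Of the 36 points, 26 are filled and all of them lie right of 0, and the triangle marks Atp6v0d2, which had no count in wt LSK and is drawn at its lower bound of 5.07.

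Of the 7 membrane proteins, Gpnmb differed most and 2 transporters were not called. Gpnmb (NCBI gene 93695, chromosome 6, 49036518 to 49058182) had 37.1, 22.7 and 7.05 CPM in iMLL-ENL total, against 0.752, 0.878 and 0.306 CPM in wt LSK. The lowest leukemic library was still far above the highest normal one, and Gpnmb rose (log2 fold change 5.24, SE 0.71, adjusted p = 0.00105). Cd63, the tetraspanin gene of late endosomes and secretory granules, had 43.2, 98.1 and 30.0 CPM in iMLL-ENL total, against 5.85, 13 and 10.1 CPM in wt LSK (log2 fold change 2.72, SE 0.48, adjusted p = 0.00355). Cd68 (NCBI gene 12514, chromosome 11, 69664213 to 69666170), which encodes macrosialin, a glycoprotein typical of macrophages, had 157, 85.2 and 182 CPM in iMLL-ENL total, against 30.5, 37.2 and 21 CPM in wt LSK (log2 fold change 2.42, SE 0.34, adjusted p = 0.00125). In these genes the groups did not overlap, although iMLL-ENL total replicate 3 was the lowest leukemic library for Gpnmb and Cd63 and the highest for Cd68.

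The structural membrane glycoproteins were less spread between libraries. Lamp1 (NCBI gene 16783, chromosome 8, 13159161 to 13175338) had 569.6, 566 and 808 CPM in iMLL-ENL total, against 118, 175 and 134 CPM in wt LSK, and it rose by 2.35 (SE 0.24, edgeR adjusted p = 0.000263). Lamp2, whose product takes part in chaperone-mediated autophagy, had 595, 725 and 835 CPM in iMLL-ENL total, against 305, 289 and 310.3 CPM in wt LSK (log2 fold change 1.41, SE 0.20, adjusted p = 0.00133). Both had every leukemic library above every normal one. Neither transporter of the group was called. Npc1, which exports cholesterol, averaged 103 ± 42.9 CPM in iMLL-ENL total and 157 ± 10.6 CPM in wt LSK (log2 fold change -0.46, SE 0.32, adjusted p = 0.315). Every leukemic library of Npc1 lay below every normal one, at 53.4 to 132 against 147 to 168 CPM, as in 4073 of all 13811 genes tested. Mcoln1, the TRPML1 calcium channel gene whose promoter is printed above, averaged 20.5 ± 2 CPM in iMLL-ENL total and 18.7 ± 3.22 CPM in wt LSK (log2 fold change 0.29, SE 0.26, adjusted p = 0.428). Of the exon bases of Lamp1, 9.31% lie within Grtp1, and without strand in the library kit the counts of Lamp1 may hold some reads of that gene.

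Among the proteases the rise differed by enzyme. Ctsh, an aminopeptidase of the papain family, had 34.2, 81.6 and 95.7 CPM in iMLL-ENL total, against 6.18, 25.3 and 5.71 CPM in wt LSK (log2 fold change 2.70, SE 0.65, adjusted p = 0.0153). The groups did not overlap, but wt LSK replicate 2 was well above its group, and the call was lost without iMLL-ENL total replicate 2 or wt LSK replicate 1 or 3 (adjusted p = 0.0635, 0.0649 and 0.0507). Ctsz, a carboxypeptidase of the same family, had 109.8, 156 and 113 CPM in iMLL-ENL total, against 20.4, 44.8 and 22.1 CPM in wt LSK (log2 fold change 2.29, SE 0.32, adjusted p = 0.00124). Ctsa, the serine carboxypeptidase that shields Neu1 and Glb1 from degradation, had 242, 172 and 267 CPM in iMLL-ENL total, against 61.3, 101 and 70.2 CPM in wt LSK (log2 fold change 1.72, SE 0.25, adjusted p = 0.00144). Every leukemic library of Ctsz and Ctsa lay above every normal one.

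Ctsd (NCBI gene 13033, chromosome 7, 142375910 to 142387827), the most abundant cathepsin per kilobase in wt LSK, changed least among the called proteases. It had 293, 256 and 296 CPM in iMLL-ENL total, against 158, 208 and 159.5 CPM in wt LSK, and rose by 0.84 (SE 0.18, edgeR adjusted p = 0.00768). Without wt LSK replicate 1 or 3 its adjusted p was 0.0577 and 0.0558. Ctsb and Ctss, cysteine proteases of antigen-presenting cells singled out after their values were seen, had 305, 415 and 459 CPM (Ctsb) and 120.2, 199.8 and 210.1 CPM (Ctss) in iMLL-ENL total, against 89.9, 207 and 104 and 23.1, 81.8 and 24.2 CPM in wt LSK. No group overlapped, and the genes rose by 1.73 (SE 0.32, edgeR adjusted p = 0.00453) and 2.23 (SE 0.50, adjusted p = 0.0118). The call of Ctss was lost without iMLL-ENL total replicate 2 (0.0506) or wt LSK replicate 1 (0.0514). Tpp1, Lgmn, Ctsk and Ctsl were not called, with log2 fold changes of 0.65, 0.97, 0.57 and 0.47 (edgeR adjusted p = 0.0727, 0.293, 0.702 and 0.374). GENCODE exons of Ctsd share 34.4% of their bases with Gm49369, those of Ctsl 26.8% with Gm47123, those of Ctsb 12.8% with Fdft1 and those of Ctsa 10.5% with Pltp, so these counts are uncertain. The GENCODE exons of Ctsl cover 6489 bases, against a deposited gene width of 1971 bases. How much of the counted bases is shared was not measured.

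Of the 9 other hydrolases, 7 rose and Gaa and Glb1 were not called. Neu1, the lysosomal sialidase gene, had 55, 121 and 81.6 CPM in iMLL-ENL total, against 8.43, 10.6 and 11.8 CPM in wt LSK (log2 fold change 3.22, SE 0.33, adjusted p = 0.000282). Man2b1, the lysosomal alpha-mannosidase gene, had 1004, 653 and 558 CPM in iMLL-ENL total, against 130.0, 187 and 151 CPM in wt LSK (log2 fold change 2.40, SE 0.25, adjusted p = 0.000314). Both were higher in every leukemic library than in any normal one, as were Hexa, a hexosaminidase subunit gene (log2 fold change 1.87, SE 0.22, adjusted p = 0.000601), and Gusb, the beta-glucuronidase gene (log2 fold change 1.18, SE 0.21, adjusted p = 0.00371). For Hexa, 12.8% of exon bases lie within Tmem202.

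Ppt1, which removes palmitate from proteins, had 234, 244 and 248 CPM in iMLL-ENL total, against 129.8, 189 and 152 CPM in wt LSK (log2 fold change 0.79, SE 0.18, adjusted p = 0.0106). Lipa, the lysosomal acid lipase gene, had 127, 109 and 165 CPM in iMLL-ENL total, against 83, 108 and 91.8 CPM in wt LSK (log2 fold change 0.67, SE 0.22, adjusted p = 0.0468). The groups of Lipa lay close at their nearest libraries, and its call was lost under 10 of the 11 alternative settings. Asah1, the acid ceramidase gene, rose by 0.91 (SE 0.21, edgeR adjusted p = 0.0114). Without wt LSK replicate 1 or 3, Asah1 and Ppt1 lost their calls (adjusted p = 0.0763 and 0.0625 for Asah1, 0.077 and 0.0645 for Ppt1). Gaa, the acid alpha-glucosidase gene, averaged 45.8 ± 13.9 CPM in iMLL-ENL total and 51.4 ± 7.5 CPM in wt LSK (log2 fold change -0.01, SE 0.26, adjusted p = 0.988). Glb1, the beta-galactosidase gene, averaged 37.5 ± 2.14 and 62.7 ± 10.8 CPM in these groups (log2 fold change -0.58, SE 0.20, adjusted p = 0.059), and it was called lower with RLE factors, library totals only and DESeq2 (adjusted p = 0.0453, 0.0307 and 0.024). Every leukemic library of Glb1 lay below every normal one, at 35.3 to 39.5 against 50.4 to 70.4 CPM, as in 4073 of all 13811 genes tested.

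All 3 soluble cofactors rose. Grn, the gene of progranulin, which is cleaved to granulins in the lysosome, had 278, 390.2 and 430.1 CPM in iMLL-ENL total, against 55.8, 111 and 62.4 CPM in wt LSK (log2 fold change 2.44, SE 0.30, adjusted p = 0.000656). Npc2, which hands cholesterol to Npc1, had 187, 304 and 281 CPM in iMLL-ENL total, against 60.2, 127 and 85.5 CPM in wt LSK (log2 fold change 1.68, SE 0.30, adjusted p = 0.00359). Psap, whose product is cut into the saposins that present sphingolipids to their hydrolases, had 153, 162 and 326 CPM in iMLL-ENL total, against 64.9, 129 and 68.9 CPM in wt LSK (log2 fold change 1.47, SE 0.38, adjusted p = 0.0186). In each of the 3 genes wt LSK replicate 2 was the highest normal library, though below every leukemic one. Psap missed the threshold when wt LSK replicate 1 or 3 was left out (adjusted p = 0.0975 and 0.0792).

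All 4 listed subunits of the proton pump rose, but for Atp6v0d2 no other call was possible, as given below. Atp6v1a, the catalytic subunit gene, had 237, 319 and 354 CPM in iMLL-ENL total, against 93.5, 106 and 109.8 CPM in wt LSK (log2 fold change 1.72, SE 0.21, adjusted p = 0.000646). Atp6v1b2, its partner in the ATP-splitting head, had 240.4, 281 and 449 CPM in iMLL-ENL total, against 81, 95.8 and 79.4 CPM in wt LSK (log2 fold change 2.09, SE 0.27, adjusted p = 0.000856). Atp6v0d1, the widely expressed form of the d subunit that joins head and membrane ring, had 155, 159 and 149 CPM in iMLL-ENL total, against 49.7, 66.4 and 54.1 CPM in wt LSK (log2 fold change 1.61, SE 0.18, adjusted p = 0.000392). In these 3 subunits the groups did not overlap. Atp6v0d2, the alternative d subunit known from osteoclasts and macrophages, had 0.88, 2 and 2.47 CPM in iMLL-ENL total, against 0 counts in all 3 wt LSK libraries. Against a floor of 3 counts over the wt LSK group (0.0531 CPM) it was at least 33.5-fold higher (edgeR adjusted p = 0.00465). Atp6v0d2 passed the filter on low counts through iMLL-ENL total alone, so it could be called only as higher.

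Of the 3 MiT/TFE factor genes on the list, Tfeb passed and the other two did not. Tfeb had 7.32, 4.5 and 7.71 CPM in iMLL-ENL total, against 2.09, 3.68 and 2.4 CPM in wt LSK, and it rose by 1.42 (SE 0.45, edgeR adjusted p = 0.0424), a call lost under 8 of the 11 alternative settings, with adjusted p-values of 0.17, 0.074 and 0.156 without wt LSK replicate 1, 2 or 3 and 0.0829 and 0.112 without iMLL-ENL total replicate 1 or 3. Tfe3 had 28.5, 27.6 and 40.8 CPM in iMLL-ENL total, against 26.7, 24.1 and 19 CPM in wt LSK (log2 fold change 0.63, SE 0.28, adjusted p = 0.127). Mitf had 9.45, 6.72 and 19.7 CPM in iMLL-ENL total, against 16.9, 11.8 and 11.2 CPM in wt LSK (log2 fold change 0.01, SE 0.46, adjusted p = 0.993), and its groups overlapped. Per kilobase Tfe3 stood at 8.88 ± 2.03 in iMLL-ENL total and 6.39 ± 1.08 CPM per kilobase in wt LSK, above Tfeb at 2.18 ± 0.586 and 0.911 ± 0.281 in the same groups. Tfec, the fourth gene of the family and listed among the other pathway genes, had 182, 453 and 189.6 CPM in iMLL-ENL total, against 38.2, 51.8 and 52 CPM in wt LSK, with no overlap (log2 fold change 2.69, SE 0.37, adjusted p = 0.00116). At 60.3 ± 33.8 CPM per kilobase in iMLL-ENL total and 10.4 ± 1.73 in wt LSK, Tfec had the highest level of the 4 family genes in both groups.

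A further 122 genes of the same pathway were listed to set the 36 in context, and 117 of them were tested here. Of these, 49 rose and 8 fell (median log2 fold change 0.70). Over all genes tested, 15.5% were higher and 15.1% lower, with a median of 0.05. Other lysosomal hydrolases had 15 higher and 3 lower of 29, other membrane, sorting and transport genes 11 and 2 of 27, and other V-ATPase subunits 9 and 0 of 15. Autophagy genes had 8 and 2 of 25, and regulators of MiT/TFE factors, listed together with Tfec, had 6 and 1 of 21. The V-ATPase list, with a median of 1.18, thus went the way of its 4 members above, and Atp6ap1 and Atp6v1e1 rose by 1.48 (SE 0.19, edgeR adjusted p = 0.000759) and 2.12 (SE 0.34, 0.00248). Galns, a sulfatase gene, rose by 2.57 (edgeR adjusted p = 0.000191), while the cathepsin genes Ctso and Ctsw had log2 fold changes of -0.97 and -2.19 (adjusted p = 0.00699 and 0.0155). Sort1, a sorting receptor gene, and Ostm1 rose by 2.17 and 1.56 (edgeR adjusted p = 0.000713 and 0.000819), and the lysosomal potassium channel gene Tmem175 and the amino acid sensor gene Slc38a9 had -0.69 and -0.65 (0.0214 and 0.0303).

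Of the 25 autophagy genes tested, 8 rose, 2 fell and 15 were not called. Atg9a and Wipi1, which act in building the autophagosome, rose by 2.51 and 2.55 (edgeR adjusted p = 0.000492 and 0.00088), and Gabarapl1, a coat protein gene of the autophagosome, and Ulk1, the initiating kinase gene, had log2 fold changes of -2.05 and -0.67 (adjusted p = 0.0071 and 0.0269). Among the regulators, Fnip1, a partner of folliculin, rose by 1.51 (edgeR adjusted p = 0.00228) and Rragb, a Rag GTPase gene, had -2.23 (0.0117). Exons of Atg9a, Gabarapl1 and Tmem175 share 31.8%, 28.3% and 35.3% of their bases with other genes, so these are uncertain.

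Summed monocyte and macrophage markers and summed neutrophil markers were higher in iMLL-ENL total, as were the lysosome genes. Those of conventional dendritic cells and of mast cells and basophils were lower. Of 14 monocyte and macrophage markers tested, 7 rose and 1 fell, against 15.5% and 15.1% of all genes tested. The 16 listed markers summed to 927, 2056 and 1998 CPM in iMLL-ENL total and 177, 426 and 175 CPM in wt LSK, where C1qa had 0 counts. Neutrophil markers summed to 7252, 27536 and 20209 CPM in iMLL-ENL total and 1275, 2241 and 1548 CPM in wt LSK, and 11 of 13 rose. The 9 osteoclast markers summed to 187 to 470.0 CPM in iMLL-ENL total and 218 to 231 CPM in wt LSK, with Calcr at 0 counts in both groups and Ocstamp at 0 in wt LSK. Of 5 osteoclast markers tested, 3 rose and 0 fell. As ranges over libraries, B lineage markers summed to 20.1 to 43.9 CPM in iMLL-ENL total and 51.2 to 309 CPM in wt LSK, conventional dendritic cell markers summed to 132 to 162 CPM in iMLL-ENL total and 518 to 930.4 CPM in wt LSK, mast cell and basophil markers summed to 38.1 to 75.7 CPM in iMLL-ENL total and 202 to 205 CPM in wt LSK, and plasmacytoid dendritic cell markers summed to 213 to 299 CPM in iMLL-ENL total and 371 to 669 CPM in wt LSK. In the same terms, erythroid markers summed to 175 to 298 CPM in iMLL-ENL total and 762 to 880.0 CPM in wt LSK, megakaryocyte and platelet markers summed to 6.81 to 17 CPM in iMLL-ENL total and 301 to 366 CPM in wt LSK, T and NK cell markers summed to 10.5 to 43.4 CPM in iMLL-ENL total and 87.5 to 212 CPM in wt LSK, and stroma, bone and endothelium markers summed to 96.7 to 119 CPM in iMLL-ENL total and 152 to 205 CPM in wt LSK. The part of such cells in the lysosome gene differences was not tested. Without wt LSK replicate 2, which also had the highest monocyte and macrophage sum of its group, 24 members were called and the median was 1.65.

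**Figure D3:**
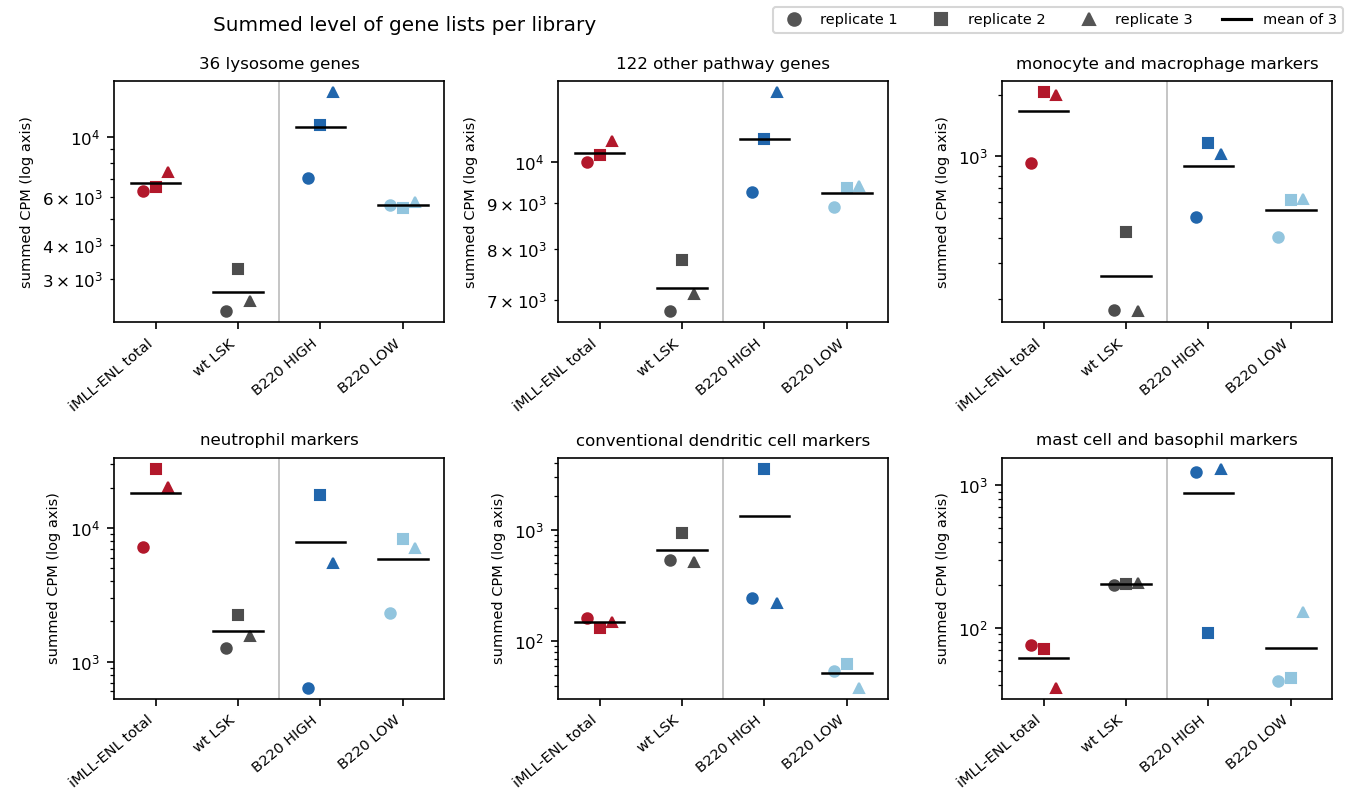
Each panel gives the summed CPM (log axis) of a gene list in each library of the 4 groups, with symbols for replicates 1, 2 and 3 and a line at the mean of 3; the grey line parts the count tables, which were not tested against each other. The 36 lysosome genes are lower in every wt LSK library than in any other, and the monocyte and macrophage markers are lower in every wt LSK library than in any iMLL-ENL total library. Among B220 HIGH libraries replicate 1 is lowest in both, at 7056 CPM for the lysosome genes and 503 CPM for these markers.

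The second comparison asked how leukemic cells with high surface B220 differ from those with low B220. No gene was called, higher or lower, out of 12564 (0.0% each way by edgeR's quasi-likelihood test, smallest adjusted p = 0.0649), so 0 of the 36 lysosome genes passed. At an unadjusted p under 0.05, 15 members were higher in B220 HIGH and 0 lower, and over all genes 5.14% were higher and 1.86% lower (646 and 234 genes). In 16 members every B220 HIGH library was above every B220 LOW library, against 6.2% of all genes, and in 0 members every B220 HIGH library was below every B220 LOW library, against 7.22% of all genes. These levels were scaled to library totals without TMM factors, which were 1.09 for B220 HIGH replicate 1 and 0.956 for B220 LOW replicate 3. For Lipa, Lgmn, Cd68, Ctsz, Atp6v0d1 and Lamp2 the lowest B220 HIGH library was only 1.003 to 1.06 times the highest B220 LOW library. Separations this narrow depend on the scaling. The median log2 fold change was 0.61 over the members and -0.03 over all genes tested, and 33 members were above 0. The 16 genes included 7 of 10 proteases, 3 of 7 membrane proteins and 0 of 3 MiT/TFE factors, and the median ran from 2.20 in the proteases to 0.25 in the other hydrolases.

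The replicate number was taken to pair the B220 HIGH and B220 LOW libraries, from the way same-numbered libraries deviated together. With that number as a block, 3 members rose, Gpnmb, Ctsd and Lgmn, against 0.581% of all genes, and 0 members fell, against 0.0478%. DESeq2 without the block called 11 members higher, against 1.76% of all genes, and 0 lower, against 0.104%. These were Gpnmb, Cd68, Ctsb, Ctsd, Ctsh, Ctsl, Ctss, Ppt1, Psap, Grn and Atp6v0d2. Without B220 HIGH replicate 1, edgeR called 10 members higher, the same genes without Ppt1, against 0.736% of all genes. The calls thus depend on the test and on that library.

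**Figure D4:**
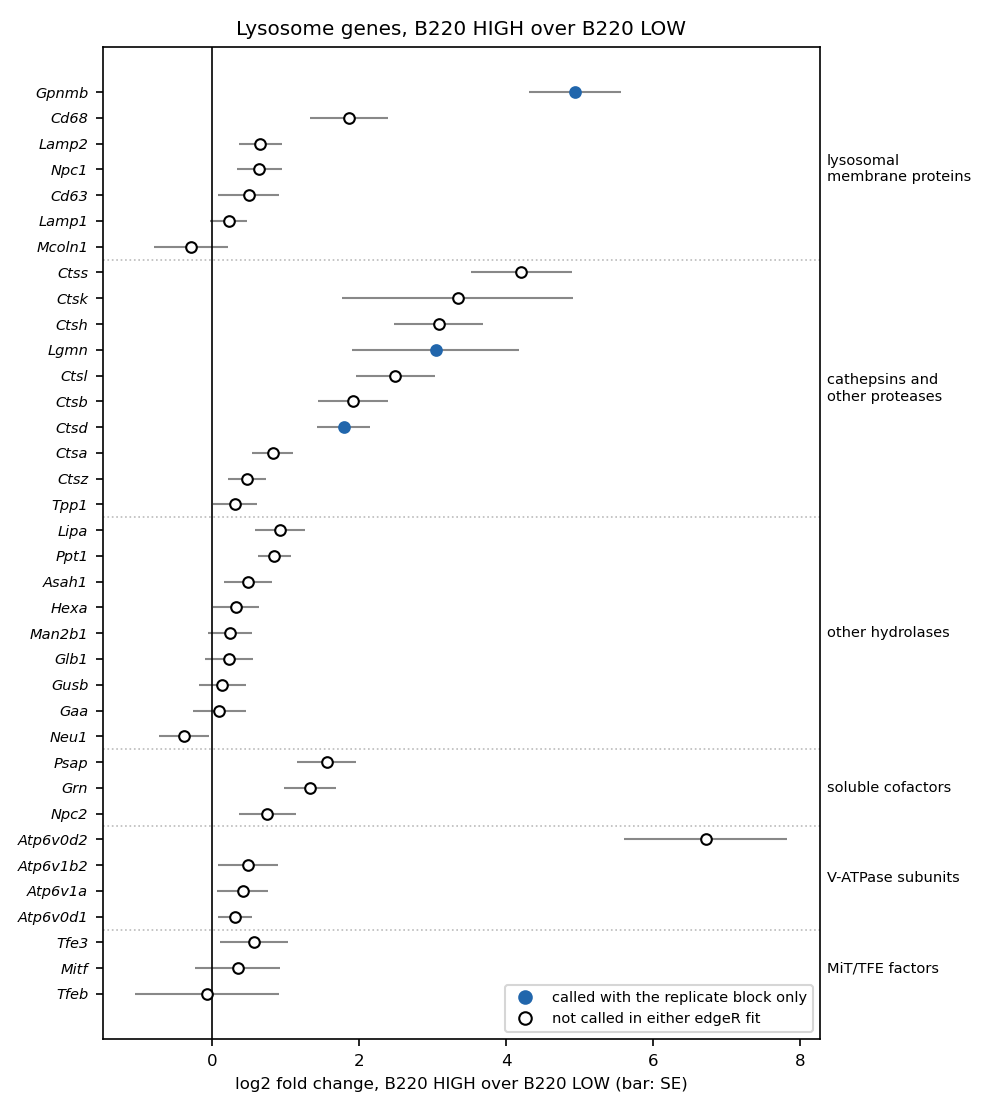
Each point is the edgeR log2 fold change of a lysosome gene, B220 HIGH over B220 LOW (3 libraries each), from the fit without the block, with a bar of 1 SE, grouped by role. Gpnmb, Ctsd and Lgmn are filled because they passed with the replicate number as a block, and 33 of the 36 points lie right of 0.

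Gpnmb had 373, 969.7 and 1735 CPM in B220 HIGH replicates 1, 2 and 3 and 28.9, 31.8 and 45.8 CPM in B220 LOW. The lowest B220 HIGH library was 8.14 times the highest B220 LOW library, and the same-numbered ratios were 12.9, 30.5 and 37.9. The log2 fold change was 4.94 (SE 0.62, edgeR adjusted p = 0.107) and, with the replicate block, 4.68 (SE 0.34, adjusted p = 0.00283). Across all 12 libraries Gpnmb was thus near 0 in normal progenitors, low in leukemic marrow and B220 LOW cells, and among the most abundant lysosomal RNAs in B220 HIGH cells. Other membrane proteins differed less. Cd68 had 68.2, 235 and 299 CPM in B220 HIGH and 48.8, 58.8 and 67.4 CPM in B220 LOW, where the lowest B220 HIGH library barely passed the highest B220 LOW one (log2 fold change 1.87, SE 0.53, adjusted p = 0.412). Lamp1 had 499, 498 and 678 CPM in B220 HIGH and 521, 451 and 518 CPM in B220 LOW, with overlap (log2 fold change 0.23, SE 0.25, adjusted p = 0.926).

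Of the proteases, Ctsd and Lgmn passed with the block. Ctsd had 659, 1004 and 1531 CPM in B220 HIGH and 316, 314 and 345 CPM in B220 LOW. All B220 HIGH libraries lay above the tight B220 LOW group, with a log2 fold change of 1.79 (SE 0.36, edgeR adjusted p = 0.229) and, with the replicate block, of 1.68 (SE 0.21, adjusted p = 0.0133). Lgmn (NCBI gene 19141, chromosome 12, 102394082 to 102439728), the asparaginyl endopeptidase that trims cathepsins, had 7.05, 40.5 and 44.4 CPM in B220 HIGH and 0.196, 4.31 and 6.98 CPM in B220 LOW. Its B220 HIGH replicate 1 lay just above B220 LOW replicate 3, and the log2 fold change was 3.04 (SE 1.14, edgeR adjusted p = 0.642) and, with the block, 3.51 (SE 0.60, adjusted p = 0.0463). The B220 LOW replicate 1 value of Lgmn rests on 3 counts, and of the 11 alternatives only the block called this gene.

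Cysteine cathepsins singled out after their values were seen had like patterns. Ctss, which processes antigen in the endosome, had 98.9, 382 and 528 CPM in B220 HIGH and 29.9, 10.3 and 19.4 CPM in B220 LOW (log2 fold change 4.21, SE 0.69, adjusted p = 0.132). Ctsl had 216, 475 and 1009.7 CPM in B220 HIGH and 132, 98.1 and 97.5 CPM in B220 LOW (log2 fold change 2.50, SE 0.54, adjusted p = 0.279), and Ctsb had 385, 897 and 1485 CPM in B220 HIGH and 253, 279.9 and 252 CPM in B220 LOW (log2 fold change 1.91, SE 0.48, adjusted p = 0.377). In all 3 genes no B220 HIGH library overlapped B220 LOW, and replicate 1 was the lowest of B220 HIGH. Ctsh had 26.7, 104 and 78.1 CPM in B220 HIGH and 8.45, 5.28 and 12.3 CPM in B220 LOW, also without overlap (log2 fold change 3.08, SE 0.60, adjusted p = 0.213). Ctsz, Ctsa and Tpp1, which remove residues from the ends of proteins, differed less, with log2 fold changes of 0.48, 0.83 and 0.31 (edgeR adjusted p = 0.79, 0.536 and 0.901). Ctsk, the osteoclast collagenase, had 0.0916, 7.92 and 9 CPM in B220 HIGH and 1.24, 0.0744 and 0.541 CPM in B220 LOW, with overlap at replicate 1.

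**Figure D5:**
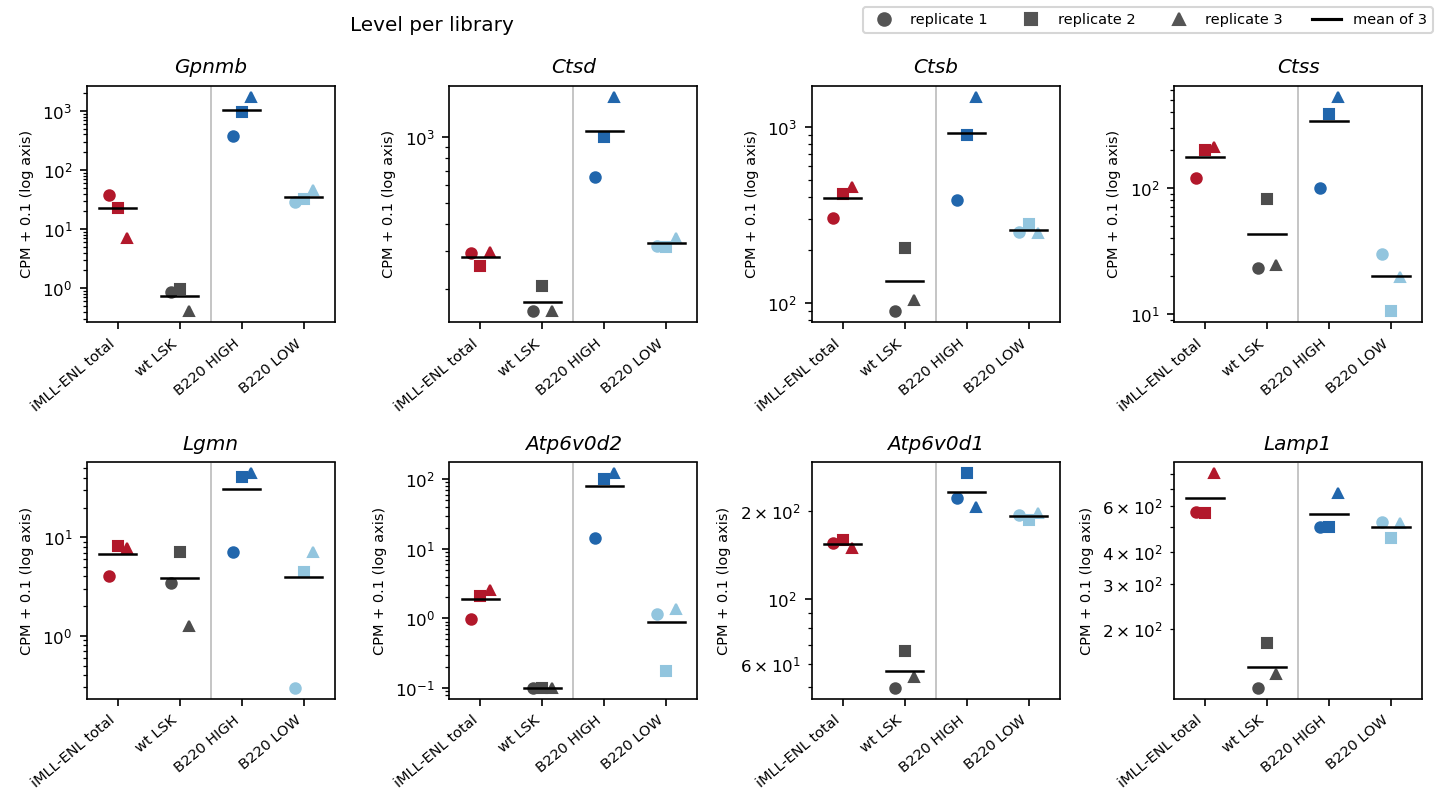
Each panel gives CPM + 0.1 (log axis) of a lysosome gene in the 12 libraries, with symbols for replicates 1, 2 and 3 and a line at the mean of 3; the grey line parts the count tables. Gpnmb, Ctsd, Ctsb, Ctss, Lgmn and Atp6v0d2 have every B220 HIGH library above every B220 LOW library, with replicate 1 the lowest of B220 HIGH, while Lamp1 overlaps between B220 HIGH and B220 LOW.

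Of the pump subunits, Atp6v0d2 had the largest difference between the sorts and passed with DESeq2. Atp6v0d2 had 14.1, 101 and 122 CPM in B220 HIGH and 1.05, 0.0744 and 1.26 CPM in B220 LOW (log2 fold change 6.71, SE 1.11, adjusted p = 0.132, and adjusted p = 0.124 with the block and 1.09e-13 with DESeq2). The lowest B220 HIGH library was 11.2 times the highest B220 LOW library. Its counterpart Atp6v0d1 had 222, 269 and 206 CPM in B220 HIGH and 194, 186 and 197 CPM in B220 LOW (log2 fold change 0.32, SE 0.23, adjusted p = 0.869). Atp6v1a had 385, 692 and 796 CPM in B220 HIGH and 414, 508 and 544 CPM in B220 LOW, with overlap. Atp6v1b2 had 103, 193 and 274 CPM in B220 HIGH and 115, 172 and 139 CPM in B220 LOW, also with overlap (edgeR adjusted p = 0.882 for both). Per kilobase Atp6v0d2 stood at 31.6 ± 22.9 CPM in B220 HIGH and 0.318 ± 0.253 CPM in B220 LOW, below Atp6v0d1 at 144 ± 20.4 and 119 ± 3.29 CPM in the same groups.

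No cofactor or other hydrolase passed with edgeR, with or without the block. Psap had 114, 274 and 278 CPM in B220 HIGH and 94.1, 60.1 and 85.6 CPM in B220 LOW, and Grn had 255, 576 and 511 CPM in B220 HIGH and 222, 166 and 178 CPM in B220 LOW, neither with overlap (edgeR adjusted p = 0.377 and 0.377). Npc2 averaged 361 ± 146 CPM in B220 HIGH and 226 ± 41.2 CPM in B220 LOW, and its libraries overlapped (log2 fold change 0.75, SE 0.38, adjusted p = 0.772). Ppt1 had 333, 356 and 359.5 CPM in B220 HIGH and 239, 185 and 182 CPM in B220 LOW, with the smallest SD relative to its mean of the members in B220 HIGH (log2 fold change 0.85, SE 0.22, adjusted p = 0.377). Neu1, which rose in leukemic marrow, had 63.9, 126 and 100.2 CPM in B220 HIGH and 112, 165 and 116 CPM in B220 LOW (log2 fold change -0.38, SE 0.34, adjusted p = 0.898), and Man2b1 had 315, 266 and 206 CPM in B220 HIGH and 354, 161 and 176 CPM in B220 LOW (log2 fold change 0.25, SE 0.30, adjusted p = 0.932). The remaining hydrolases ranged in log2 fold change from 0.10 for Gaa to 0.93 for Lipa.

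The MiT/TFE genes overlapped between the sorts. Tfeb had 1.37, 4.09 and 2.07 CPM in B220 HIGH and 3.08, 1.71 and 3.49 CPM in B220 LOW (log2 fold change -0.06, SE 0.97, adjusted p = 0.994). Tfe3 had 31.2, 53 and 22.5 CPM in B220 HIGH and 35.8, 14.5 and 24.6 CPM in B220 LOW (log2 fold change 0.58, SE 0.46, adjusted p = 0.877). Mitf had 9.89, 16.6 and 19.4 CPM in B220 HIGH and 15.2, 6.62 and 16.2 CPM in B220 LOW (log2 fold change 0.35, SE 0.57, adjusted p = 0.956). In each of these genes the replicate 2 ratio was above 1, while replicate 1 was below it. Tfec had 51.1, 354 and 263 CPM in B220 HIGH and 103, 666 and 468 CPM in B220 LOW (log2 fold change -0.83, SE 0.85, adjusted p = 0.915). Within each number Tfec was lower in B220 HIGH, but with the replicate block it was not called either (log2 fold change -0.87, SE 0.15, edgeR adjusted p = 0.0517). Of the 122 other pathway genes, 119 were tested in this comparison and 0 were called, with or without the block (median log2 fold change 0.23). The medians were 0.37 in other hydrolases, 0.29 in membrane, sorting and transport genes and 0.32 in V-ATPase subunits. They were 0.07 in autophagy genes and 0.04 in regulators of the MiT/TFE factors listed together with Tfec.

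Markers of other cell types also varied among these libraries. The 11 stem and LSK markers summed to 791, 545 and 831 CPM in B220 HIGH, against 335, 265 and 259 CPM in B220 LOW, where Hoxb5 had 0 counts. These sums did not overlap, the median log2 fold change of the 9 tested was 1.93, and 0 were called with or without the block. The 16 monocyte and macrophage markers summed to 503, 1159.5 and 1025 CPM in B220 HIGH and 405, 614 and 617 CPM in B220 LOW. C1qa had 0 counts in both groups, and C1qb, C1qc and Mertk had 0 counts in B220 LOW. Of 11 markers tested, 0 were called without the block and 2 were higher with it, Adgre1, which encodes F4/80 (edgeR adjusted p = 0.0313), and Cd14 (0.0482). Adgre1 had 219.6, 180.2 and 188 CPM in B220 HIGH and 78, 21.9 and 17.6 CPM in B220 LOW. Osteoclast markers summed to 116, 228 and 164 CPM in B220 HIGH and 76.9, 36.5 and 62.4 CPM in B220 LOW, with Calcr and Ocstamp at 0 counts in both groups. Neutrophil markers summed to 639.9, 17625 and 5457 CPM in B220 HIGH and 2329.7, 8263 and 7052 CPM in B220 LOW, and with the block 3 of them, Elane, Mpo and Ctsg, were lower and 0 higher. The list did not move as 1, since the median log2 fold change of its 13 markers without the block was 1.43. The conventional dendritic cell markers, high in B220 HIGH replicate 2, summed to 38.3 to 63.1 CPM in B220 LOW, and the mast cell and basophil markers to 42.6 to 129 CPM, with Fcer1a and Tpsb2 at 0 counts in both groups. Of these, Cpa3, a mast cell protease gene, was higher with the block (edgeR adjusted p = 0.0178), at 819, 52.5 and 876 CPM in B220 HIGH and 2.88, 0 and 11.4 CPM in B220 LOW. As ranges over libraries, plasmacytoid dendritic cell markers summed to 215 to 478 CPM in B220 HIGH and 182 to 327 CPM in B220 LOW, and erythroid markers summed to 260.0 to 553 CPM in B220 HIGH and 278 to 451 CPM in B220 LOW. In the same terms, megakaryocyte and platelet markers summed to 34.6 to 66.1 CPM in B220 HIGH and 3.43 to 9 CPM in B220 LOW, T and NK cell markers summed to 1.77 to 47.6 CPM in B220 HIGH and 0.18 to 10.7 CPM in B220 LOW, and stroma, bone and endothelium markers summed to 83.5 to 173 CPM in B220 HIGH and 63.5 to 87.1 CPM in B220 LOW. The part of such cells in the lysosome gene differences was not tested.

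Set side by side, the comparisons gave different members the larger values. Lamp1 had a log2 fold change of 2.35 in iMLL-ENL total over wt LSK and 0.23 in B220 HIGH over B220 LOW, Neu1 3.22 and -0.38, and Man2b1 2.40 and 0.25. Ctsl had 0.47 and 2.50, Lgmn 0.97 and 3.04, and Ctsd 0.84 and 1.79. Gpnmb was large in both, at 5.24 and 4.94. The difference between the comparisons was not tested, since they lie in separate count tables.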

How the data were processed

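The deposited counts are the authors' whole-number reads per NCBI gene ID in 2 tables of 24028 genes, 1 per comparison, per the file headers. Per the labels' protocols, a NuGen Ovation kit, which keeps no strand, was used on PicoPure RNA. The submitters' processing notes name edgeR, GRCm38 and mm10, while aligner and counter are not given in the sources. Symbols (23968 IDs matched, 60 did not), coordinates and promoters are RefSeq's on GRCm38.p6, and exon overlaps were taken from GENCODE on GRCm38. Levels are CPM over library totals. Each comparison was fitted over its whole table with edgeR 4.0.16 in R 4.3.3 (TMM factors, filterByExpr with a minimum count of 10, robust quasi-likelihood F test, two-sided, Benjamini-Hochberg adjustment over all genes tested, called at an adjusted p under 0.05), and every adjusted p is edgeR's unless DESeq2 (1.42.0) is named. The 11 alternatives per comparison were RLE factors, library totals only, no filter, DESeq2, the replicate number as a block, and leaving out each library. The SE of an edgeR log2 fold change was back-calculated from the test, as the absolute log2 fold change divided by the square root of the F statistic. The procedure was tested on simulated counts.

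Deviations of same-numbered B220 HIGH and B220 LOW libraries from their group means correlated at 0.397, 0.198 and 0.307 across genes, and those of unlike-numbered ones at -0.290 to 0.0307. Equal numbers were therefore treated as pairs, a choice made from the data and not from the labels. Deviations from a group mean cancel out within the group. The low values of unlike-numbered libraries thus follow in part from the same-numbered ones and are no separate evidence of pairing. Members and gene lists were chosen with earlier results of these data known. Values per library were given, by rule, for Lamp1, Cd68, Gpnmb, Ctsd, Tfeb, Tfe3 and Mitf, for the 2 called members with the largest and the 2 with the smallest fold change in each role, and for members called between the B220 sorts, and for others after their values were seen. From each other list, up to 2 called genes with the smallest p in each direction were named, except 1 gene that is not reported here. The floor for a count of 0 is 3 counts over the group and covers counting error only. The deposited CPM tables were not used here.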

Additional observations from a re-analysis of the deposited data

How the results depend on the processing

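Between iMLL-ENL total and wt LSK, 18 of the 26 called members kept their call in all 11 alternatives and 8 of the 10 others changed in none. Leaving out 1 library gave 18 to 25 called members (18 without wt LSK replicate 1, 19 without wt LSK replicate 3), medians of 1.36 to 1.65, 2636 to 4528 called genes in all (2658 without wt LSK replicate 1, 2636 without wt LSK replicate 3) and 33 to 59 called genes of the other pathway lists (33, 37 and 34 without wt LSK replicates 1, 2 and 3). Tpp1 was called higher with the replicate number as a block (edgeR adjusted p = 0.0278) or once iMLL-ENL total replicate 3 was left out (0.0373). Same-numbered libraries of these groups correlated at 0.0164, 0.160 and -0.0358, and unlike-numbered ones at -0.128 to 0.144. The groups came from mice of different genotype, so equal numbers were not treated as pairs here. The replicate block called 25 members and 4048 genes.

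Between B220 HIGH and B220 LOW, edgeR called 22 genes without the filter on low counts, 79 with the replicate block and 0 to 96 with 1 library left out (96 without B220 HIGH replicate 1, 3 without B220 LOW replicate 1), and DESeq2 called 232. Called members numbered 11 with DESeq2, 3 with the block and 0 to 10 with 1 library left out, and called genes of the other pathway lists 4 with DESeq2 and 0 to 2 with 1 library left out. The median of the members ran from 0.48 to 0.82. With the block, no other member or pathway gene was called.

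Several uncalled values changed sign. In iMLL-ENL total over wt LSK, Mitf had -0.038 with RLE factors, -0.15 with library totals only, -0.022 without the filter, -0.038 with DESeq2 and -0.13 with the block. With 1 library left out, Mitf ranged between -0.64 and 0.30, Ctsk between -1.03 (without iMLL-ENL total replicate 3) and 1.10, and Gaa between -0.20 and 0.21. In B220 HIGH over B220 LOW with 1 library left out, Mcoln1 ranged between -0.67 and 0.035, Gaa between -0.28 and 0.36, Gusb between -0.13 and 0.38, and Tfeb between -0.59 and 0.26. The cause was not tested. With 3 libraries a group and 10921521 counts in the smallest library, members near 1 CPM in a group rest on few reads.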
